A study of Mus musculus with 8 samples.

Results

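Intraembryonic endothelium and endocardium were followed in chimeric mouse embryos in which Eomes-KO cells developed beside wild-type (WT) host cells. The cells were chosen by the authors' combined annotation, as those labelled embryo proper endothelium, venous endothelium or endocardium, and these members numbered 382 of the 28723 cells in the table. Embryo proper endothelium held 199 of them, venous endothelium 174 and endocardium 9. The label was taken as deposited, and the endothelial markers Pecam1, Cdh5 and Kdr and the endocardial marker Nfatc1 were not analysed here, because the table used holds no expression values.

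The Eomes-KO cells came from male embryonic stem cell (ESC) lines that carry a tdTomato reporter and lack Eomes, a T-box transcription factor gene. They were injected into C57BL/6 blastocysts, and the embryos were collected at around E8.5 in 4 pools of roughly 4 embryos, each pool made with 1 Eomes-KO clone. Sorting on tdTomato gave 4 Eomes-KO (tdTomato+) and 4 WT host (tdTomato−) libraries of 10x Genomics 3′ v3 single-cell RNA-seq. No library of injected ESCs with intact Eomes was analysed here, so ESC origin and loss of Eomes cannot be told apart. The sorted groups were made into separate libraries, so effects of the sort and of genotype cannot be told apart either.

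Endothelial cells line blood vessels. In the early mouse embryo they arise from mesoderm that expresses Kdr, a receptor for vascular endothelial growth factor, and they assemble into the dorsal aortae, the cardinal and vitelline veins and the capillary plexus. The endocardium is the endothelial lining of the heart tube. It expresses Nfatc1 and forms beside the myocardium from cardiac mesoderm, whereas the vessels of the yolk sac (YS) and the allantois form outside the embryo proper.

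The Eomes-KO libraries held 602, 1153, 3346 and 3465 cells and the WT host libraries 2414, 3791, 5819 and 8133 cells, and libraries are named below by their number of cells. Values by library are given in that order throughout, and the 2 larger Eomes-KO libraries are those of 3346 and 3465 cells. Total UMIs per library lay between 19370600 and 66414390, and median UMIs per cell between 5124 and 32560, with the highest median in the Eomes-KO library of 602 cells. Of 28723 cells, 8561 Eomes-KO and 19284 WT host cells carried an epiblast-derived label, which is the denominator of every share below unless another is named. Barcodes found in more than 1 library numbered 80, and 1 member carried such a barcode.

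**Figure D1:**
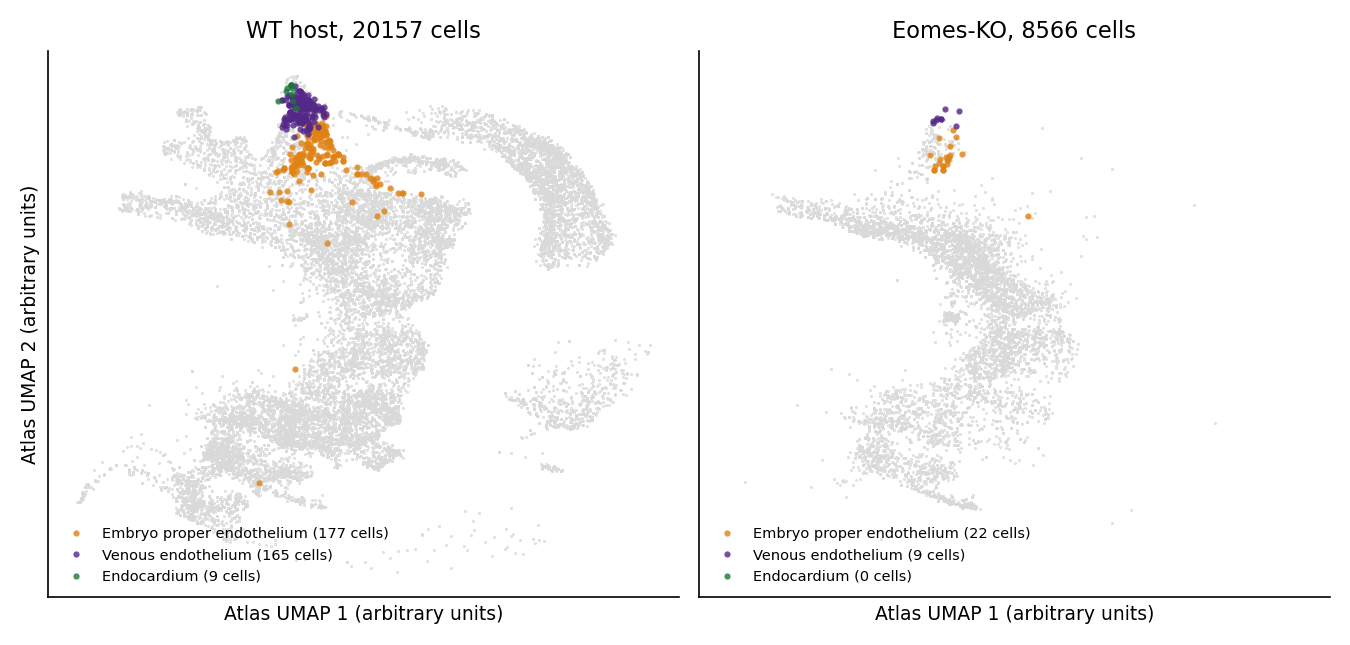
Position of the cells in the authors' projection onto the atlas UMAP (both axes in arbitrary units), with WT host cells on the left and Eomes-KO cells on the right. Grey points are all cells of the group and coloured points the 3 labels; the 31 Eomes-KO members hold 22 embryo proper and 9 venous cells and no endocardial cell, against 351 members in the WT host.

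Embryo proper endothelium, the general vessel lining of the embryo body, was less frequent in Eomes-KO. Its share was 0.793%, 0.612%, 0.912% and 1.10% in the 4 WT host libraries. In the 2 larger Eomes-KO libraries it was 0.419% (14 cells) and 0.231% (8 cells), and no cell was found in those of 602 and 1153 cells. Every Eomes-KO share lay below every WT host share, with means of 0.162% ± 0.203 (SD, n = 4) and 0.855% ± 0.206 (SD, n = 4). The log2 fold change was −1.95 (SE 0.65, adjusted p = 0.0132, edgeR quasi-likelihood test over 33 cell types). In that fit 48.5% of all cell types (16 of 33) were lower in Eomes-KO at an adjusted p under 0.05. The call was lost among cells with a doublet score under 0.25 (log2 fold change −1.15, adjusted p = 0.162) and with DESeq2's poscounts scaling, which moved the median of all types by 0.60 (−1.28, adjusted p = 0.127).

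Venous endothelium, the lining of the early veins, was also lower in Eomes-KO. Its share in the 4 WT host libraries was 1.09%, 0.319%, 1.36% and 0.714%. The Eomes-KO libraries of 3346 and 3465 cells held 4 and 5 such cells, or 0.120% and 0.144%, and the other two held none. The measured shares did not overlap, although the WT host values themselves spread widely (0.869% ± 0.452, SD, n = 4, against 0.0660% ± 0.0768, SD, n = 4). In the Eomes-KO library of 602 cells a count of 0 allows up to 0.499%, above the lowest WT host share of 0.319%. The log2 fold change was −3.12 (SE 0.73, adjusted p = 0.00115, edgeR).

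Endocardial cells were found in each WT host library, with 2, 1, 3 and 3 cells, and in none of the 4 Eomes-KO libraries. The WT host share was 0.0467% (9 of 19284 cells, 95% Clopper-Pearson interval 0.0213% to 0.0886%). The 0 of 8561 Eomes-KO cells allow a share of up to 0.0350%, taking 3 cells over the group as the limit. The WT host interval reaches below this limit. Such an overlap is no test, so it does not decide whether the groups differ. With 9 cells in all, under the minimum of 10, the label was not tested in the main fit. Intervals and limits here cover counting error only.

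The 3 labels joined made up 1.96%, 0.958%, 2.33% and 1.86% of the cells in the 4 WT host libraries. They made up 0.538% (18 cells) and 0.375% (13 cells) in the 2 larger Eomes-KO libraries. The log2 fold change was −2.54 (SE 0.65, adjusted p = 0.00294, edgeR), in a fit where 46.9% of the types (15 of 32) were lower in Eomes-KO. At the mean WT host share, the empty Eomes-KO libraries of 602 and 1153 cells would have held 10.7 and 20.4 members. The absence of any member allows shares of up to 0.499% and 0.261%, below the lowest WT host share of 0.958%. Without these libraries, an alternative added after the data were seen, the joined log2 fold change was −1.96 (adjusted p = 0.00667), that of embryo proper endothelium −1.40 (adjusted p = 0.0422) and that of venous endothelium −2.69 (adjusted p = 0.00685).

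**Figure D2:**
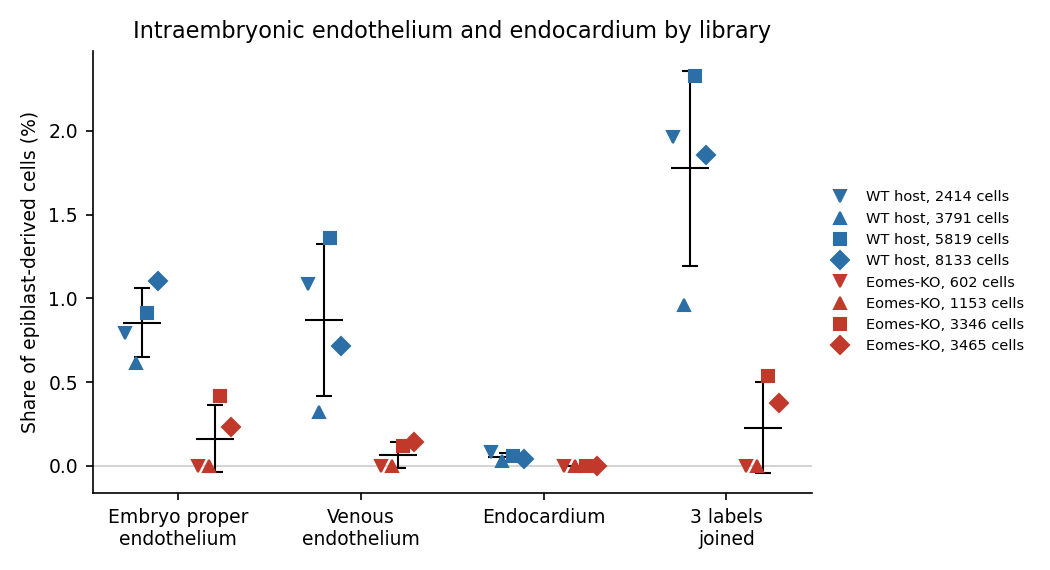
Share of epiblast-derived cells (%, y axis) for each label and for the 3 joined, with 1 symbol a library and black bars for the mean ± SD of 4 libraries. The joined share lies between 0.958% and 2.33% in the WT host and between 0 and 0.538% in Eomes-KO.

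The vessels outside the embryo proper gave a scale for this difference. For each library the log2 ratio of intraembryonic members to allantois endothelium was taken, with 0.5 added to both counts. It was 0.55, 0.12, 0.51 and 0.59 in the 4 WT host libraries. It was −3.46, −2.31 and −2.63 in the Eomes-KO libraries of 1153, 3346 and 3465 cells, while the library of 602 cells held neither type and its 0 reflects only the added counts. The library of 1153 cells held 5 allantois endothelial cells and no member, so its value depends on the added count too. Allantois endothelial cells numbered 91 and 83 in the 2 larger Eomes-KO libraries, against 18 and 13 members, whereas in each WT host library the members outnumbered them. Their own share was 2.72% and 2.40% there, 0 and 0.435% in the smaller Eomes-KO libraries, and 0.878% to 1.63% in the WT host. Their log2 fold change was 0.28 (SE 0.64, adjusted p = 0.712, edgeR). The ratio thus reflects both types and not the members alone. The difference in mean ratio, Eomes-KO minus WT host, was −2.54 log2 units (exact permutation p = 0.0286, two-sided). This p is the smallest that 4 against 4 libraries allow. Adjusted over 3 comparisons it was 0.0857, so the difference did not pass after adjustment. Without the library of 602 cells the difference was −3.24 log2 units (exact permutation, adjusted p = 0.171).

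The ratio of members to pharyngeal mesoderm, an anterior mesoderm of the embryo proper, was −3.70, −2.81, 0.17 and −1.08 in the Eomes-KO libraries. It was −1.24, −2.44, −0.86 and −1.70 in the WT host libraries. The values of −3.70 and −2.81 come from the libraries without members and depend on the added count. The ratio averaged −1.86 ± 1.73 over the Eomes-KO and −1.56 ± 0.68 over the WT host libraries (SD, n = 4 each). This difference was smaller than the spread between libraries (exact permutation p = 0.771, adjusted 0.771), and it was −0.29 with an added count of 0.5 but 0.13 with an added count of 1. Both types were less frequent in Eomes-KO, with pharyngeal mesoderm at 0.636% ± 0.330 against 5.05% ± 0.784 (SD, n = 4 each). YS endothelium was found only in the WT host (51 cells in 4 libraries), so its ratio in Eomes-KO rests on the added count (difference −0.48, exact permutation p = 0.714, adjusted 0.771).

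Venous endothelium made up 22.2% (4 of 18) and 38.5% (5 of 13) of the venous and embryo proper cells in the 2 larger Eomes-KO libraries. In the 4 WT host libraries it made up 57.8%, 34.3%, 59.8% and 39.3%. The groups overlapped, and the mean difference of −17.5 percentage points was not distinguishable from the spread between libraries (exact permutation p = 0.267, with 0.133 the smallest possible for 2 against 4). A stronger effect on one of these labels than on the other was therefore not shown.

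A second and older set of atlas labels, which has fewer vascular classes, divided the same cells differently. The authors built the combined annotation from this set and the extended one, and both come from the same 15 nearest atlas cells. The older labels are therefore not independent of the labels that chose the cells. Embryo proper endothelium corresponded to haematoendothelial progenitors, the early mesodermal precursors of blood and endothelium, in all 22 Eomes-KO cells and in 175 of the 177 cells of the WT host. This was not particular to embryo proper endothelium. All 179 Eomes-KO and 245 of 247 WT host allantois endothelial cells carried the same older label, and members were 33.3% of its 679 cells. All 9 endocardial cells and 142 of 165 WT host venous cells (86.1%) carried the older label endothelium instead. Of the 9 Eomes-KO venous cells, 3 carried endothelium (33.3%, 95% Clopper-Pearson interval 7.49% to 70.1%) and 6 haematoendothelial progenitors. By library the endothelium share of venous cells was 50% (2 of 4) and 20% (1 of 5) in the 2 larger Eomes-KO libraries, against 84.6%, 75%, 90% and 84.2% in the 4 WT host libraries. These shares did not overlap, but rest on 4 and 5 Eomes-KO cells and were not tested. Among WT host venous cells the share was 63.8% (30 of 47) in those mapped to E8.5 and 94.9% (112 of 118) in those mapped earlier. Of the 8 Eomes-KO venous cells mapped to E8.5, 2 carried endothelium (95% Clopper-Pearson interval 3.19% to 65.1%), and the 1 mapped earlier carried it too. This interval includes the WT host share of 63.8%, and a difference between genotypes within a mapped stage was not tested.

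In the extended atlas labels every member carried the same label as in the combined annotation. The shares by extended label therefore restate the make-up by the labels that chose the cells, and are not an independent result. Embryo proper endothelium was 50.7% ± 12.8 of WT host members (SD, n = 4) and 69.7% ± 11.5 of Eomes-KO members (SD, n = 2), a difference within the spread (exact permutation p = 0.267, adjusted 0.267). The extended label embryo proper endothelium was also carried by 21 cells that the combined annotation placed elsewhere, in lateral plate (9 cells), paraxial (11 cells) or intermediate mesoderm (1 cell). With members taken by extended label, the joined log2 fold change was −2.33 (adjusted p = 0.00126, edgeR).

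Intraembryonic endothelial cells mapped to later stages in both Eomes-KO libraries that held any than in the WT host libraries. Each cell was assigned by the authors to an atlas stage from E7.5 to E8.5 through its 15 nearest atlas cells, the same neighbours that gave its label, so stage and label are not independent. In the 2 larger Eomes-KO libraries, 72.2% (13 of 18) and 69.2% (9 of 13) of members mapped to E8.5, the latest stage. In the 4 WT host libraries, 12.8% (6 of 47), 38.9% (14 of 36), 20.8% (25 of 120) and 31.8% (47 of 148) did. Both Eomes-KO shares lay above all 4 WT host shares, 70.7% ± 2.12 (SD, n = 2) against 26.1% ± 11.6 (SD, n = 4). The exact permutation test gave p = 0.133, the smallest that 2 against 4 libraries allow.

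Among all other epiblast-derived cells the Eomes-KO libraries did not stand above the WT host. Of these cells, 23.1% and 14.6% mapped to E8.5 in the 2 larger Eomes-KO libraries, compared with 19.9%, 38.7%, 22.4% and 30.1% in the 4 WT host libraries. WT host members differed from the other cells of their library by a mean of −1.71 percentage points (SD 3.84, n = 4), and Eomes-KO members by 51.9 percentage points (n = 2). Over all 6 libraries the difference between members and other cells was within its spread (mean difference 16.2 percentage points, higher in 4 of 6, exact sign-flip p = 0.344). Allantois endothelium of the 2 larger Eomes-KO libraries mapped to E8.5 in 18.7% (17 of 91) and 15.7% (13 of 83) of cells, and in the WT host in 9.52% to 32.7%.

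**Figure D3:**
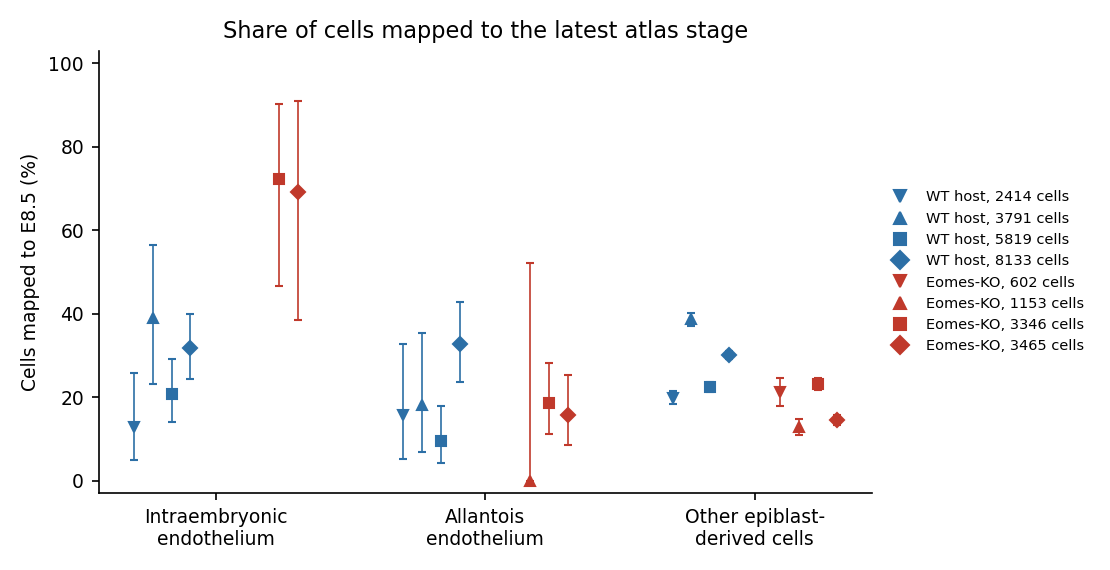
Share of cells mapped to E8.5 (%, y axis) in intraembryonic endothelium and endocardium, allantois endothelium and all other epiblast-derived cells, for each library with at least 5 such cells. Bars are 95% Clopper-Pearson intervals; the 2 Eomes-KO libraries with members stand at 72.2% and 69.2% for intraembryonic cells and at 18.7% and 15.7% for allantois endothelium.

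Taken by label, 10 of 14 and 4 of 8 embryo proper cells mapped to E8.5 in the 2 larger Eomes-KO libraries, as did 3 of 4 and 5 of 5 venous cells. In the WT host, 38 of 177 embryo proper cells (21.5%) and 47 of 165 venous cells (28.5%) did so. Of the 9 endocardial cells, 7 mapped to E8.5 and 2 to E8.25. Before E8.25 the Eomes-KO members were 1 cell mapped to E7.75 and 2 cells mapped to E8.0, while the WT host had 3 members mapped to E7.5, 9 to E7.75 and 84 to E8.0.

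Read the other way, intraembryonic endothelium was scarce among Eomes-KO cells of the earlier mapped stages. Members made up 0.195% (5 of 2564) and 0.136% (4 of 2952) of cells mapped before E8.5 in the 2 larger Eomes-KO libraries. In the 4 WT host libraries they made up 2.13%, 0.954%, 2.38% and 1.81%. Among cells mapped to E8.5 they made up 1.66% (13 of 781) and 1.75% (9 of 513) in those Eomes-KO libraries, within the WT host values of 1.27%, 0.964%, 2.17% and 1.95%. The Eomes-KO libraries of 602 and 1153 cells held no member among their 127 and 147 cells mapped to E8.5, where the upper ends of the 95% intervals, 2.86% and 2.48%, lie above every WT host value, so a difference was not detectable there.

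The same split was fitted over all types after the data were seen. Among cells mapped before E8.5 the joined log2 fold change was −3.87 (SE 0.60, adjusted p = 0.000115, edgeR), and among those mapped to E8.5 it was −0.43 (SE 0.68, adjusted p = 0.555). In the second fit the median of all types moved by 0.61. The interaction of genotype and mapped stage, with each library as a block, gave a log2 ratio of folds of 3.43 (SE 0.81, adjusted p = 0.00116 over 32 types, edgeR). The Eomes-KO libraries of 602 and 1153 cells held no member at any stage and so add nothing to this value. It rests on the 2 larger Eomes-KO libraries against the 4 WT host libraries, and edgeR estimates the spread partly from the other types. In that fit 12.5% of types (4 of 32) passed in either direction. Several of the 32 types had a missing or very large SE, such as YS endothelium (28663) and YS mesothelium (11675), and could not pass. The share among types that could pass was therefore above 12.5%. With the labels taken apart, embryo proper endothelium gave 3.36 (SE 0.99) and venous endothelium 4.52 (SE 1.36), each with an adjusted p of 0.0175. The interaction did not pass without the Eomes-KO library of 3465 cells (3.15, adjusted p = 0.0985) or among cells with at least 10000 UMIs (3.54, adjusted p = 0.109). The other types that passed were pharyngeal mesoderm (1.88, SE 0.64) and somitic mesoderm (1.38, SE 0.50) in the same direction and spinal cord (−1.35, SE 0.48) in the opposite one, each with an adjusted p of 0.0493. Allantois endothelium gave 0.44 (SE 0.65, adjusted p = 0.997). Differences between the interactions of these types and that of the intraembryonic cells were not tested.

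**Figure D4:**
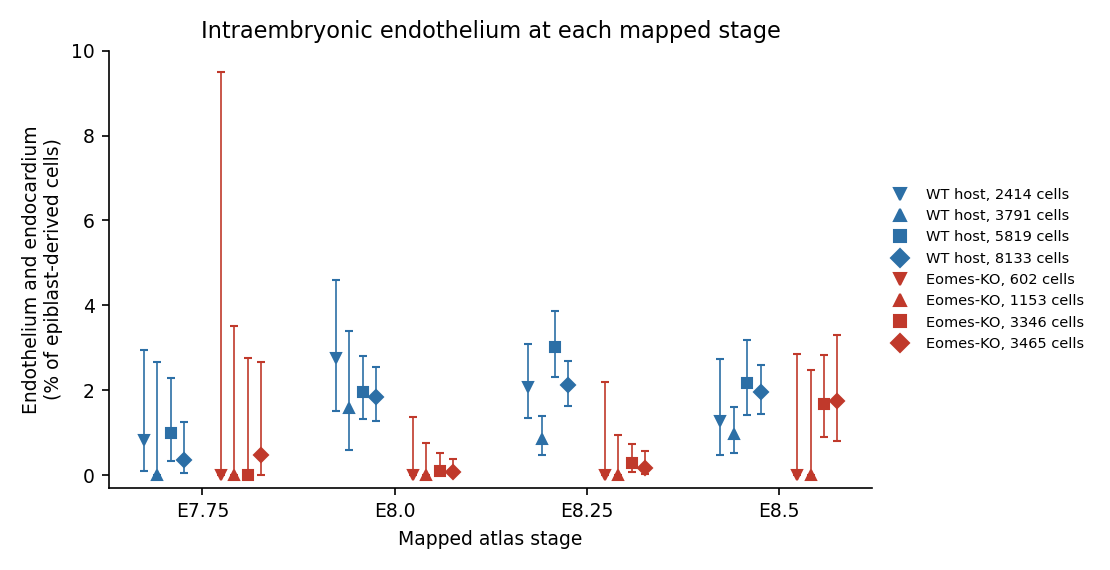
Intraembryonic endothelium and endocardium as a share of the epiblast-derived cells mapped to each atlas stage (%, y axis), with 1 symbol a library and 95% Clopper-Pearson intervals; E7.5, with few cells, is not drawn. The Eomes-KO libraries of 3346 and 3465 cells lie below the WT host libraries at E8.0 and E8.25 and among them at E8.5 (1.66% and 1.75%). At E7.75, with 1 Eomes-KO member, they lie at 0 and 0.485%, within the WT host range of 0 to 0.988%.

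Depth differed between these groups of cells. Eomes-KO members mapped to E8.5 had a median of 16813 UMIs (22 cells) and those mapped earlier 13762 (9 cells), while WT host members had 5738 (92 cells) and 7332 (259 cells). These medians pool cells over libraries of unlike depth, so the mix of libraries enters them. Of the 92 WT host members mapped to E8.5, 47 came from the library of 8133 cells, which had the lowest median UMIs per cell. Medians by stage within libraries are not given here. The share of the nearest atlas cells that carried the assigned stage had the same medians in both genotypes, 0.533 for members mapped to E8.5 and 0.467 for those mapped earlier. The part of depth in the mapped stage was not tested beyond the fit on cells with at least 10000 UMIs.

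Members were next compared with the other epiblast-derived cells of their library in UMIs, genes, mitochondrial and ribosomal percentage, doublet score and label score. The median UMI count of members was 19412 and 9819 in the 2 larger Eomes-KO libraries, compared with 7725, 11328, 10868 and 4788 in the WT host. Members had a lower ribosomal percentage than other cells in 6 of 6 libraries (mean difference −0.63 percentage points, exact sign-flip p = 0.0312, the smallest possible; adjusted over 6 measures, 0.188). Their label score, the share of the nearest atlas cells with the assigned extended label, was lower in 5 of 6 libraries and equal in the sixth (mean difference −0.0889, exact sign-flip p = 0.0625, adjusted 0.188). None of the 6 measures passed after adjustment, in a design of 6 libraries. A lower ribosomal percentage was also not particular to members. The median of allantois endothelium lay below that of other cells in each of these libraries. In the 2 larger Eomes-KO libraries it was 25.84% and 24.55%, against 27.19% and 25.88% in other cells.

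Embryo proper endothelium had the higher median doublet score and label score in each of the 5 libraries with at least 5 cells of both labels, though neither difference passed its test. The Eomes-KO library of 3346 cells, left out with 4 venous cells, went the other way, with a doublet score of 0.17 against 0.265 and a label score of 0.767 against 0.80 in venous cells. In the Eomes-KO library of 3465 cells its median doublet score was 0.17 against 0.14 in venous cells. In the 4 WT host libraries it was 0.28, 0.29, 0.23 and 0.215, against 0.195, 0.235, 0.17 and 0.16 in venous cells. Venous cells were lower in 5 of 5 libraries (mean difference −0.057, SD 0.0196, exact sign-flip p = 0.0625, the smallest possible; adjusted 0.188). The label score was likewise lower in venous cells in 5 of 5 libraries (mean 0.707 against 0.847, exact sign-flip p = 0.0625, adjusted 0.188).

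A doublet score of at least 0.25 was found in 83 of 177 WT host embryo proper cells (46.9%) and in 5 of 22 Eomes-KO ones (22.7%). Among venous cells it was found in 42 of 165 (25.5%) and 3 of 9 (33.3%), and among other epiblast-derived cells in 31.8% for the WT host and 39.8% for Eomes-KO. Limiting all cells to scores under 0.25 moved the log2 fold change of embryo proper endothelium from −1.95 to −1.15, and the median of all types by 0.36 in the same direction. The part of doublets in the value of this label was not tested further.

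Between genotypes, members had a median doublet score of 0.185 and 0.15 in the 2 larger Eomes-KO libraries, below the WT host values of 0.21, 0.26, 0.195 and 0.195 (exact permutation p = 0.133, the smallest possible; adjusted over 6 measures, 0.48). The label score of embryo proper endothelium was 0.767 and 0.70 in these Eomes-KO libraries, below the WT host values of 0.867, 0.867, 0.933 and 0.867. For venous endothelium the groups overlapped, with 0.80 and 0.60 in Eomes-KO and 0.60 to 0.80 in the WT host. None of the 6 measures could pass in a comparison of 2 with 4 libraries.

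**Figure D5:**
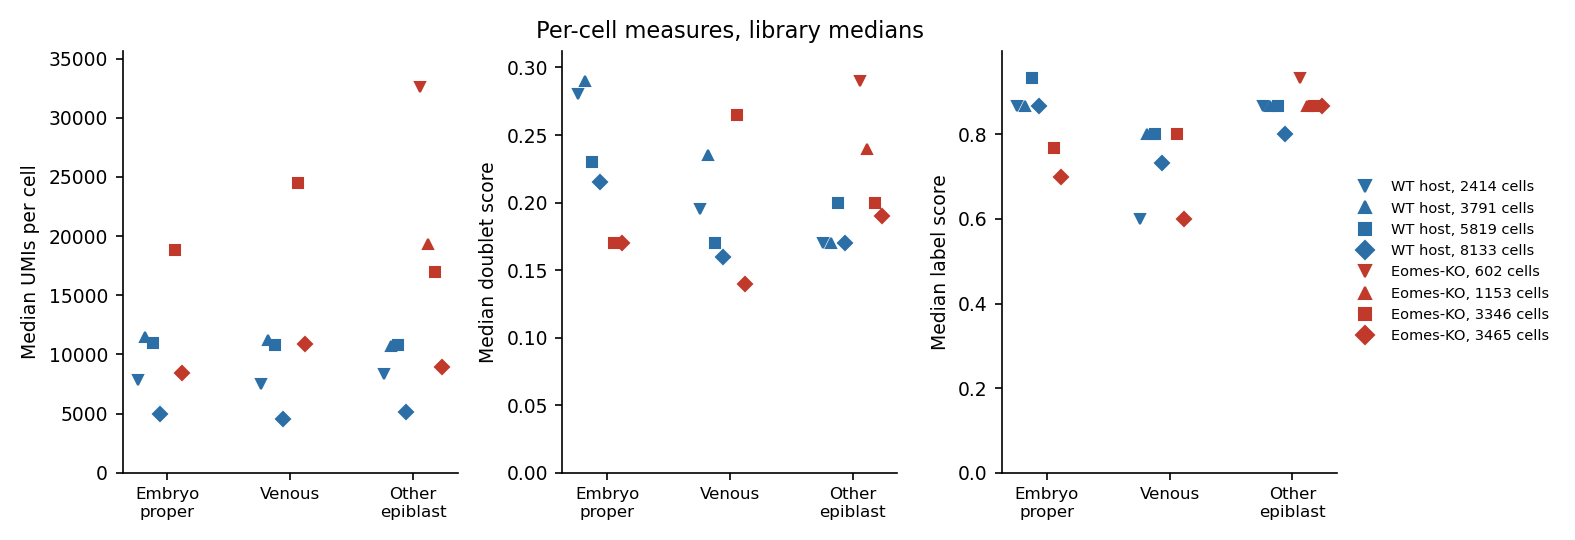
Library medians of UMIs per cell, doublet score and label score (y axes; both scores have no unit) for embryo proper endothelium, venous endothelium and all other epiblast-derived cells. Each symbol is 1 library; embryo proper cells of the WT host have median doublet scores of 0.215 to 0.29, and the 2 Eomes-KO libraries stand at 0.17.

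The nearest atlas cell was recorded for each cell. The 382 members had 318 distinct nearest atlas cells, 27 for the 31 Eomes-KO members and 301 for the 351 WT host members. Of these atlas cells, 10 were nearest to members of both genotypes, and 13 of the 31 Eomes-KO members lay on them.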

How the data were processed

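Chimeric embryo cells were profiled by 10x Genomics 3′ v3 scRNA-seq. The submitters' processing notes name Cell Ranger 6.0.1 and mm10. The authors filtered cells on depth, genes, mitochondrial and ribosomal content, removed those with a doublet score above 0.5, and transferred labels and stages from the 15 nearest atlas cells. The deposited table, which holds 1 row per cell, gives UMI counts, the percent of mitochondrial and ribosomal UMIs, a doublet score and label scores as a fraction of the 15 neighbours, per the authors' methods. Library names in the table match no sample label, so genotype was taken from the tdTomato column and libraries were not paired. Each pool gave 1 library of each genotype, so the groups share embryos, and this pairing was not used.

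Cells were summed per library and type. Abundance was tested with edgeR 4.0.16 (quasi-likelihood, R 4.3.3) over types with at least 10 cells, with the number of epiblast-derived cells as library size and Benjamini-Hochberg adjustment. Ratios to other types were tested by exact permutation (two-sided) over all 8 libraries, also those without members. Shares and library medians were tested by exact permutation or sign flips (two-sided). These tests used libraries with at least 5 members, or at least 3 venous and embryo proper cells for the venous share. Alternatives used DESeq2 1.42.0 size factors and limma 3.58.1. The scripts were tested on simulated data. Types named are the 3 labels, atlas labels carried by at least 5 members and 3 comparison types. Other types are named only where a result led to them. These are types that passed the interaction fit, an example of a very large SE and the combined labels of cells outside the members. The members, lists and tests were chosen with earlier results of these data known. Intervals are 95% Clopper-Pearson.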

Additional observations from a re-analysis of the deposited data

Results flagged for a closer look

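The fold between genotypes in the joined share of intraembryonic endothelium and endocardium was set apart by mapped stage, with a log2 ratio of 3.43 between cells mapped to E8.5 and those mapped earlier (SE 0.81, adjusted p = 0.00116, edgeR interaction of genotype and mapped stage). The test was chosen after the late mapping of Eomes-KO members was seen, so it is not independent of that observation, and stage and label come from the same atlas neighbours. It did not pass without the Eomes-KO library of 3465 cells (adjusted p = 0.0985) or with at least 10000 UMIs (adjusted p = 0.109).

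Among the 4 WT host libraries, the median label score of embryo proper endothelium was 0.933 in the library of 5819 cells, apart from the 0.867 of the other three. Label scores move in steps of 1 neighbour in 15, and the rate at which chance sets such stepped and tied values apart was not computed; for continuous values it is about 1 in 20 groups.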

How the results depend on the processing

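Alternatives other than the split by stage left the lower abundance of venous endothelium (19 of 19) and of the 3 labels joined (20 of 20) past the threshold, and that of embryo proper endothelium in 17 of 19. The exceptions for embryo proper endothelium were poscounts scaling (−1.28, adjusted p = 0.127) and a doublet score under 0.25 (−1.15, adjusted p = 0.162). Among cells mapped to E8.5 the log2 fold change was 0.32 for embryo proper endothelium (adjusted p = 0.733), −0.80 for venous endothelium (0.41) and −0.43 for the 3 joined (0.555). The endocardium, with no Eomes-KO cell, had a fitted value of −3.85 (adjusted p = 0.0396) without a minimum of cells, which depends on the prior count and is no bound. Leaving out 1 library gave −2.69 to −1.65, −3.56 to −2.81 and −3.11 to −2.24 for embryo proper, venous and joined cells. The genotype by stage interaction was 3.54 with at least 10000 UMIs and 3.15 to 3.71 with 1 library left out, not passing without the Eomes-KO library of 3465 cells (adjusted p = 0.0985).

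Differences in ratio that had not passed changed sign. That to pharyngeal mesoderm was 0.13 with 1 added and −0.97 to 0.32 with 1 library left out, and that to YS endothelium −1.38 to 0.35. The ratio to allantois endothelium stayed negative (−3.24 to −2.09). The venous share differed by −25.6 to −9.34 percentage points. For members against other cells the mitochondrial difference was −0.09 to 0.011 percentage points. For Eomes-KO against WT host members, leaving out 1 library gave 1142 to 10734.5 UMIs, 173.5 to 1517 genes, −0.435 to 0.285 mitochondrial percentage points and −0.125 to −0.025 in label score. With means over cells the doublet score of venous minus embryo proper cells was −0.0299. The causes of these changes were not tested.

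No paired analysis was possible because names of libraries in the deposited cells do not carry the pool codes of the labels. Only 2 Eomes-KO libraries held members, so exact permutation tests within members compare 2 with 4 libraries and cannot go below p = 0.133.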
